A study of Mus musculus with 21 samples.

Results

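The 8 transcription factor genes described here, Hnf4a, Nr1h4, Ppara, Esrra, Pax8, Emx1, Cux1 and Tfcp2l1, were chosen by symbol as regulators of tubular identity and metabolism, and were 8 of 46366 genes with at least 1 read in any of the libraries. The choice was made with earlier results of these data known, so shares set against all genes are a description of these members. They were read in 21 RNA-Seq libraries of wild-type adult mice, 11 of renal tubular epithelial cells (TECs) from kidney and 10 of neutrophils (PMNs) from blood, all taken 24 hours after surgery. Sham surgery or renal ischemia-reperfusion injury (IRI, by clamping of the renal pedicles) followed either remote ischemic preconditioning (RIPC, repeated inflation of a cuff on the hind limb) or a control procedure in which the cuff was held at low pressure. TECs came from 3 sham control, 3 sham RIPC, 2 IRI control and 3 IRI RIPC libraries, and PMNs from 2, 3, 2 and 3 libraries of the same groups. No allele or agent beyond these procedures is named in the labels, and the labels call the cells sorted. The study's methods describe isolation of tubular cells with prominin-1 magnetic beads for primary culture, and do not say whether the sequenced TECs were isolated in this way.

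HNF4A is an orphan nuclear receptor that, together with HNF1 factors, maintains the differentiated proximal tubule. NR1H4 (FXR, the bile acid receptor), PPARA (the fatty acid receptor that induces lipid oxidation) and ESRRA (which with PGC-1α drives mitochondrial genes) are nuclear receptors of metabolism in the same epithelium. PAX8 is a paired box factor that specifies the nephron lineage and stays expressed along adult tubules, EMX1 is a homeobox factor best known from the developing cerebral cortex, CUX1 is a CUT homeobox factor, and TFCP2L1 is a grainyhead-like factor of the distal nephron and collecting duct.

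Libraries held 21479605 to 51624602 reads in TECs and 20881334 to 30507235 in PMNs, so that 3 reads, the limit that a count of 0 allows, corresponded to 0.0581 to 0.144 CPM (counts scaled to a common library size). The summed level of 16 proximal tubule markers was 18975 to 33663 CPM in sham TECs, and the 16 neutrophil markers summed to 7668 to 32295 CPM in sham PMNs and 23917 to 46921 CPM in PMNs after IRI. Neutrophil markers summed to 1.87 to 336 CPM in TECs, with 4 of 16 (Ly6g, Camp, Ltf and Stfa2l1) at 0 in all 6 sham TEC libraries. PMN libraries after sham surgery carried 1631 to 14336 CPM of the proximal tubule markers, and those after IRI carried 826.5 to 1386 CPM. Macrophage and monocyte markers, 12 in all, summed to 5664 to 19310 CPM in sham PMNs and 2048 to 4151 CPM in PMNs after IRI, and the part of these sums in the values below was not tested.

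In the GRCm38 annotation, all are protein-coding genes, with Nr1h4 (ENSMUSG00000047638.15) at chr10:89454234-89533585 (minus strand), Ppara (ENSMUSG00000022383.13) at chr15:85734983-85802819 (plus strand), Esrra (ENSMUSG00000024955.14) at chr19:6910977-6921813 (minus strand), Pax8 (ENSMUSG00000026976.15) at chr2:24420560-24475599 (minus strand), Emx1 (ENSMUSG00000033726.8) at chr6:85187438-85204462 (plus strand), Cux1 (ENSMUSG00000029705.17) at chr5:136248135-136567490 (minus strand) and Tfcp2l1 (ENSMUSG00000026380.10) at chr1:118627945-118685168 (plus strand).

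Hnf4a (ENSMUSG00000017950.16) lies on the plus strand of chromosome 2 at chr2:163506808-163572910 (GRCm38) and has an upstream promoter start, P2, and a downstream start, P1, which serves adult kidney and liver. All 33575 Hnf4a reads of TECs (100%) were assigned to Hnf4a-202 (4362 bases), among the 3 annotated transcripts that begin at P1. Of these reads 27762 were from sham surgery and 5813 from IRI. None was assigned to the transcript that begins at P2, a partial model of 431 bases. Reads from the body of a longer P2 transcript could be assigned only to the other models, so this share cannot show which start was used. The 250 bases before each RefSeq start (GRCm38.p6, 5′ to 3′ on the strand of the gene) are given below for both Hnf4a starts and for Nr1h4, which fell after IRI. They were searched on both strands for the nuclear receptor half-site AGGTCA, the HNF1 half-site GTTAAT and the HNF4A site CAAAGTCCA, and capitals mark the matches, none of which overlaps another.
Hnf4a P1, chr2:163546905-163547154, plus strand: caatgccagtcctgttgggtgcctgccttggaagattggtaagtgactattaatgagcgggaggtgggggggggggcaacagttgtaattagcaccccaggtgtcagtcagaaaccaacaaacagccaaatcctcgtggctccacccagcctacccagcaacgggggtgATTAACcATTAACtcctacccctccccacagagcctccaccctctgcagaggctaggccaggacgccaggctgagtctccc
Hnf4a P2, chr2:163506607-163506856, plus strand: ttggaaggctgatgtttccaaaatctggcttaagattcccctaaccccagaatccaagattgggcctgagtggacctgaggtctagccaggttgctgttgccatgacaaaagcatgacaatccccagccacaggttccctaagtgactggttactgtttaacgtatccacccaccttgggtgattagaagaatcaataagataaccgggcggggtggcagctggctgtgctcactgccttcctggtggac
Nr1h4, chr10:89506659-89506908, minus strand: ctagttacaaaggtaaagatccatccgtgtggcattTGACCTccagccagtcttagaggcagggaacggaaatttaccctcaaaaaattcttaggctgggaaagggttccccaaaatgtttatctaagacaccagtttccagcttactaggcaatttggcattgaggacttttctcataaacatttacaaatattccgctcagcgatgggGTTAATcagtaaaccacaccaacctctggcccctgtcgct
The Hnf4a P1 window held HNF1 half-sites at -81 to -76 and -74 to -69 from the start, both on the minus strand, and the P2 window held no exact match to these letters. Sites that differ from the letters by a base were not searched for, so the absence of a match does not show that P2 lacks such a site. The Nr1h4 window, before the start that 93.9% of its TEC reads could be assigned to within 100 bases, held the nuclear receptor half-site at -214 to -209 (minus strand) and the HNF1 half-site at -40 to -35. Of 32851 promoter windows of this length, 6.43% held the HNF1 half-site, 14% the nuclear receptor half-site and 0.384% the HNF4A site, and the matches are a description of the letters only.

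In sham TECs the members differed in level. On the length-corrected scale (TPM over protein-coding transcripts), Nr1h4 had a median of 61.6 TPM over the 6 sham libraries and a lowest value of 53.0, above the highest value of any other member there. Cux1 (median 23.0 TPM), Pax8 (17.9) and Hnf4a (17.5) followed with overlapping ranges. Emx1 (11.2), Esrra (7.10), Ppara (5.54) and Tfcp2l1 (4.44) were lower, and neighbours in that order overlapped as well. After IRI the order of the medians was Pax8 (42.4 TPM), Cux1 (13.3), Nr1h4 (10.2), Hnf4a (3.61), Esrra (1.57), Ppara (1.16), Tfcp2l1 (0.419) and Emx1 (0), with the Pax8 range of 14.8 to 65.5 TPM overlapping those of Cux1 and Nr1h4. The Cux1 values include transcripts that lack the homeobox (the CASP type, described below). That type held 75.7% of Cux1 reads in sham TECs and 77.8% after IRI, so the place of Cux1 in both orders is not that of the homeobox factor alone.

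**Figure D1:**
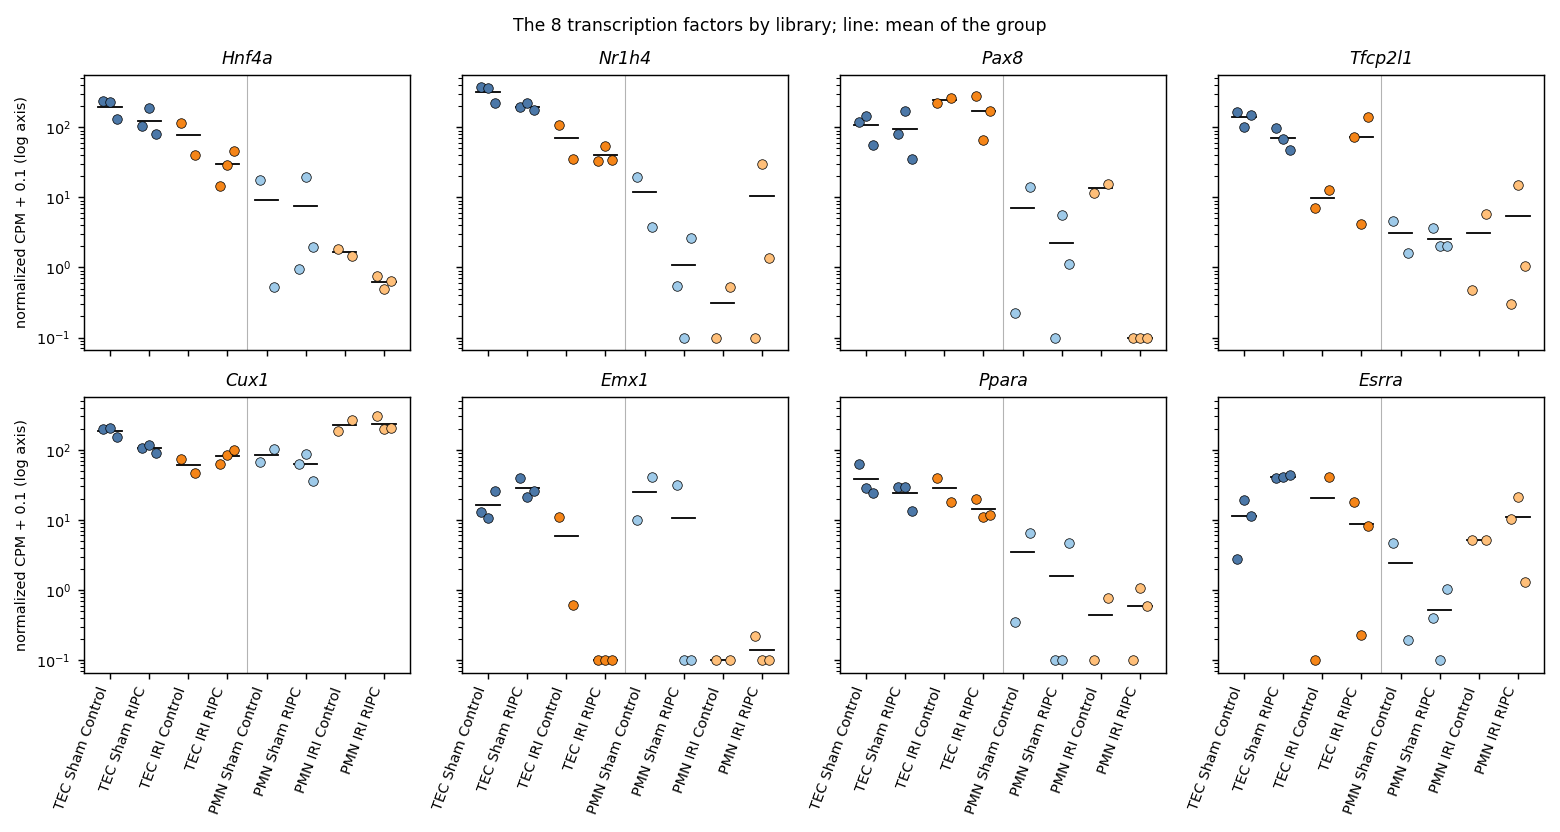
Normalized CPM plus 0.1 (log axis) of the 8 members, 1 panel per gene and 1 point per library, in the 8 groups of TECs and PMNs, with a line at the mean of each group. Nr1h4 lay at 174.6 to 375.2 CPM in sham TECs and 32.97 to 107.7 CPM in TECs after IRI, and Emx1 was at 0 in the 3 TEC libraries of IRI with RIPC.

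The first comparison asked which members set TECs apart from PMNs. After sham surgery, Hnf4a, Nr1h4, Tfcp2l1 and Pax8 were higher in TECs, 4 of 8 members, where 2.62% of the 31769 genes tested were called in either direction and 1.13% higher (edgeR's quasi-likelihood test, Benjamini-Hochberg adjusted p under 0.05). Hnf4a lay at 80.16 to 237.1 CPM in the 6 sham TEC libraries and at 17.64, 0.431, 0.842, 19.73 and 1.87 CPM in the 5 sham PMN libraries, a log2 difference of 4.25 (SE 0.98, adjusted p = 0.0190). The groups did not overlap, but 2 of the PMN libraries stood above the other 3. Nr1h4 differed by 6.20 (SE 1.54, adjusted p = 0.0323), Tfcp2l1 by 5.18 (SE 1.19, adjusted p = 0.0190) and Pax8 by 4.70 (SE 1.23, adjusted p = 0.0472). Ppara (log2 difference 3.76, SE 1.60, adjusted p = 0.237), Esrra (4.44, SE 1.71, adjusted p = 0.194) and Cux1 (0.94, SE 0.43, adjusted p = 0.266) did not pass the test. Emx1 (0.42, SE 1.52) did not pass either, and PMN sham control replicate 2 (40.55 CPM) lay above every sham TEC library. Ppara, with Hnf4a, Nr1h4, Tfcp2l1 and Pax8, made 5 members whose sham TEC libraries all lay above the sham PMN libraries, where 3.75% of all genes did. Ppara passed without PMN sham RIPC replicate 3 (adjusted p = 0.0185), where its other PMN sham RIPC libraries were at 0. The calls rested on few libraries, and so did the sizes, which with 1 library left out ran from 3.83 to 6.51 for Hnf4a (6.51 without PMN sham control replicate 1) and from 4.29 to 7.67 for Pax8 (7.67 without PMN sham control replicate 2). Without replicate 2 of the PMN sham control group the adjusted p was 0.0658 for Hnf4a, 0.0846 for Nr1h4 and 0.0869 for Tfcp2l1, without replicate 1 it was 0.0503 for Nr1h4, 0.056 for Tfcp2l1 and 0.0857 for Pax8, and Pax8 was also lost without PMN sham RIPC replicate 3 (0.0674) and without any 1 of the 6 sham TEC libraries (0.0547 to 0.103). Nr1h4 was also lost without TEC sham control replicate 1 (0.051) or 2 (0.0752) and without TEC sham RIPC replicate 2 (0.0503).

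After IRI, 3 members were called between the cell types, where 2.67% of all genes were called and 1.17% were higher in TECs. Hnf4a, Nr1h4, Pax8 and Ppara were higher in all 5 TEC libraries than in all 5 PMN libraries, where 2.94% of all genes were, and Cux1 was lower, where 3.94% were. Hnf4a was higher in TECs by 5.72 on the log2 scale (SE 1.08, adjusted p = 0.00484) and kept its call with any library left out. Pax8 lay at 66.23 to 282.3 CPM in TECs and at 0 in the 3 PMN libraries of IRI with RIPC (adjusted p = 0.00291), so that in the RIPC groups it was at least 1371-fold lower in PMNs, taking 3 reads per library as the floor. In the control groups its mean was 242.6 CPM in TECs and 13.5 CPM in PMNs, an 18-fold difference. Cux1 was the one member lower in TECs, by 1.70 on the log2 scale (SE 0.45, adjusted p = 0.0476), where 1.49% of all genes were called lower. Its call was lost when any 1 of the 10 libraries after IRI was left out (adjusted p = 0.0621 to 0.517). Nr1h4 (5.16, SE 1.47, adjusted p = 0.0695) and Tfcp2l1 (2.73, SE 1.05, adjusted p = 0.235) did not pass with all libraries. Neither did Ppara (5.63, SE 1.81, adjusted p = 0.123), Esrra (0.86, SE 1.47) or Emx1. Nr1h4 passed without PMN IRI control replicate 2 (adjusted p = 0.0424), PMN IRI RIPC replicate 1 (0.0453) or 2 (0.0103) or TEC IRI control replicate 2 (0.0253), and Tfcp2l1 passed without PMN IRI RIPC replicate 2 (4.33, adjusted p = 0.0272). In bulk libraries such as these, fewer cells of a type and less RNA per cell cannot be told apart.

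The next comparison was of TECs after IRI with TECs after sham surgery, as the mean over control and RIPC. Nr1h4 and Emx1 fell, 2 of 8 members, where 1.40% of the 25917 genes tested were called, 1.15% lower and 0.255% higher. The fitted log2 difference was below 0 for 7 of the 8 members and their median was -1.38, against 0.15 over all genes. Hnf4a, Tfcp2l1, Cux1, Ppara, Esrra and Pax8 did not pass the test across all genes.

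Nr1h4 lay at 375.2, 369.4 and 220.8 CPM in the sham control libraries, at 192.4, 219.3 and 174.6 CPM with sham RIPC, at 107.7 and 34.79 CPM in the IRI control libraries, and at 32.97, 54.43 and 34.3 CPM with IRI and RIPC. Every IRI library lay below every sham library, which was so for 3.01% of all genes and for no other member, and no member lay above in every IRI library, as 1.59% of genes did. The log2 difference was -2.26 (SE 0.42, adjusted p = 0.0182). The adjusted p rose to 0.0564 without TEC sham control replicate 2, to 0.0526 and 0.057 without TEC sham RIPC replicates 1 and 2, and to 0.0901 without TEC IRI control replicate 2, while the difference stayed between -2.76 and -1.99 with any library left out.

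Emx1 was a gene of few reads. It lay at 12.94, 10.62 and 25.53 CPM after sham control, at 39.78, 21.03 and 25.65 CPM after sham RIPC, at 11.08 and 0.503 CPM after IRI control, and at 0 in all 3 libraries of IRI with RIPC. The last of these groups was at least 227-fold lower than the sham RIPC group (mean 28.8 CPM against a floor of 0.127). The call between IRI and sham (adjusted p = 0.0252) was lost without TEC sham control replicate 2 (0.0665) or 3 (0.0608) and without TEC sham RIPC replicate 1 (0.0803), 2 (0.0667) or 3 (0.0578). In PMNs Emx1 was found at 9.96 and 40.55 CPM in the sham control libraries and at 31.16 CPM in 1 sham RIPC library, and at 0 or 0.122 CPM in the other 7.

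Hnf4a lay at 237.1, 226.4 and 130.1 CPM after sham control, at 104.4, 186.6 and 80.16 CPM after sham RIPC, at 114.8 and 40.51 CPM after IRI control, and at 14.31, 28.55 and 46.21 CPM after IRI with RIPC. A single IRI control library reached into the sham range and the other 4 IRI libraries lay below it. The log2 difference was -1.74 (SE 0.48) and the adjusted p was 0.101, so that it did not pass the test. With the Wald test of DESeq2, without a filter on low counts, and with limma on TPM, Hnf4a was among the members called. Under the control procedure alone, both IRI control libraries lay below the 3 sham control libraries (-1.41, SE 0.71, adjusted p = 0.570).

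Pax8 was the one member with a fitted difference above 0. It lay at 119.3, 145.5 and 55.28 CPM after sham control, at 81.01, 171.3 and 35.64 CPM after sham RIPC, at 219.7 and 265.4 CPM after IRI control, and at 282.3, 66.23 and 170.8 CPM after IRI with RIPC. The 2 IRI control libraries lay above all sham libraries, while of the 3 IRI RIPC libraries 1 lay above and 2 within the sham range. The log2 difference was 0.97 (SE 0.49, adjusted p = 0.369).

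Cux1 lay at 197.6, 203.8 and 151.9 CPM after sham control, at 106.5, 117.3 and 91.0 CPM after sham RIPC, at 73.35 and 46.96 CPM after IRI control, and at 63.25, 83.27 and 101 CPM after IRI with RIPC. IRI and sham overlapped by 1 library on each side, and the difference of -1.02 (SE 0.37) had an adjusted p of 0.224. Tfcp2l1 lay at 163.5, 102.2 and 151.6 CPM after sham control, at 96.57, 68.3 and 46.56 CPM after sham RIPC, at 7.02 and 12.45 CPM after IRI control, and at 73.33, 4.1 and 139.1 CPM after IRI with RIPC. Here 2 of the 3 IRI RIPC libraries lay within the sham range and the third lay lowest of all 11, and the difference of -1.94 (SE 0.66) had an adjusted p of 0.202.

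Ppara and Esrra, both receptors of energy metabolism, had few reads. Ppara lay at 13.18 to 62.75 CPM (median 29.15) in sham TECs and at 10.78 to 39.66 CPM (median 17.99) after IRI, a difference of -0.63 (SE 0.59, adjusted p = 0.690). The share of Ppara reads on 3 transcripts with no annotated protein, 315 to 367 bases long, was 6.76% of reads in sham TECs and 35.3% after IRI, where it ran from 1.63% to 65.4% of a library. Esrra lay at 2.65 to 44.17 CPM (median 29.55) in sham TECs and at 0, 41.2, 18.05, 0.127 and 7.99 CPM in the 5 IRI libraries, a difference of -0.73 (SE 1.25, adjusted p = 0.876), and with 1 library left out it lay between -6.82 and -0.23. Esrra shares its locus with Trmt112 on the opposite strand (333 to 2054 reads in a library), and whether reads were assigned by strand is not given in the sources used here.

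Under the control procedure alone, no member was called by edgeR between TECs after IRI and sham surgery, where 1 gene was (0.00386% of those tested). At an unadjusted p under 0.05, 3 members passed (2226 genes of all, 8.59%), and DESeq2's Wald test called 3 and limma 0. Hnf4a, Nr1h4, Cux1 and Tfcp2l1 were each lower in both IRI libraries than in all 3 sham libraries, where 9.21% of all genes were, and Pax8 was higher, where 14.2% were. Nr1h4 differed by -2.24 (SE 0.63, adjusted p = 0.319), Cux1 by -1.68 (SE 0.56, adjusted p = 0.450) and Tfcp2l1 by -3.88 (SE 1.11, adjusted p = 0.336).

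Because Pax8 is expressed along the tubule, the other members were also set against it within each library, a ratio chosen after the values were seen and given with no test. The ratio of Hnf4a to Pax8 CPM ran from 1.09 to 2.35 (median 1.77) in the 6 sham TEC libraries and from 0.0507 to 0.522 (median 0.271) in the 5 IRI libraries. The ratio of Nr1h4 to Pax8 ran from 1.28 to 4.9 (median 2.84) after sham surgery and from 0.117 to 0.822 (median 0.201) after IRI. Neither ratio overlapped between IRI and sham libraries. Of the 25916 other genes tested, 5.08% had a ratio to Pax8 that was lower in every IRI library and 0.147% one that was higher, and Pax8 as the denominator was the member whose fitted difference was above 0. The ratios of Cux1 to Pax8 (medians 1.53 and 0.334) and of Tfcp2l1 to Pax8 (medians 1.25 and 0.0619) overlapped, as did that of Hnf4a to Nr1h4 (medians 0.601 and 1.07). A ratio within a library shows unequal change and not which gene changed.

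**Figure D2:**
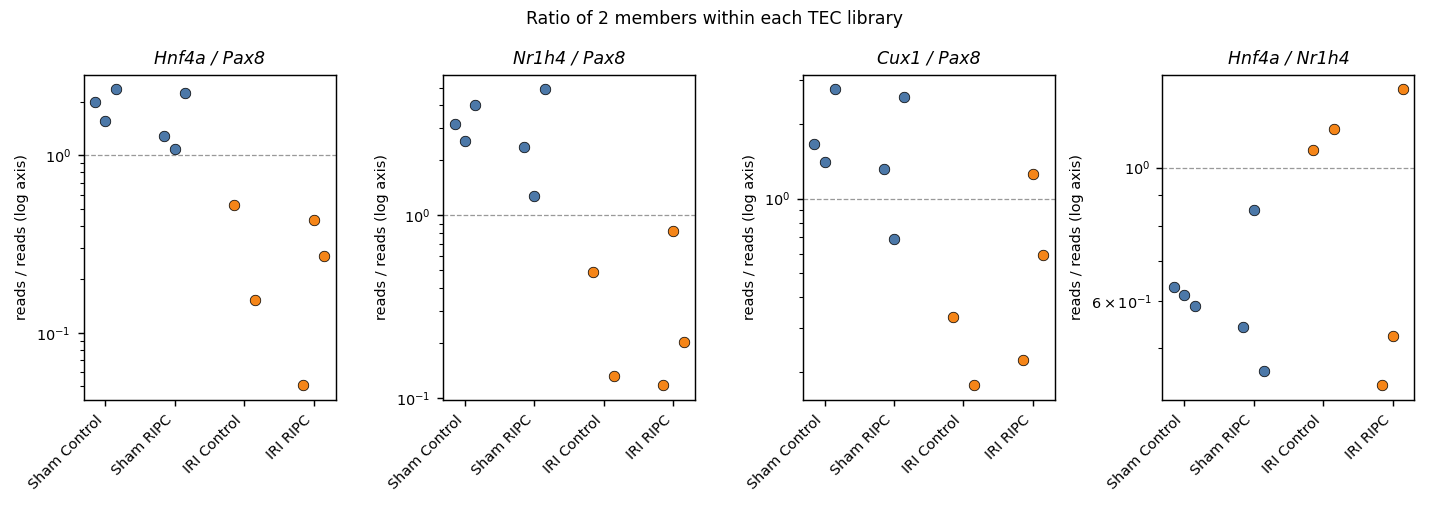
Ratio of the reads of 2 members within each TEC library (log axis), 1 point per library, by group, with a dashed line at a ratio of 1. Hnf4a over Pax8 lay at 1.09 or above in every sham library and at 0.522 or below in every IRI library, and Nr1h4 over Pax8 at 1.28 or above and 0.822 or below.

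Genes known as targets or partners of the members were read in the same comparison of TECs after IRI and sham surgery, where 1.15% of all genes were called lower and 0.255% higher. The lists were chosen with earlier results of these data known, so their counts and medians are a description. Where 1 gene of a list was called, its value describes that gene alone. Of 15 tested targets of HNF4A and HNF1 factors, 6 fell and none rose, with a median log2 difference of -2.35 against 0.15 over all genes. They included Slc22a12, the urate transporter URAT1 (-2.31, SE 0.35, adjusted p = 0.00692), Fbp1, a fructose bisphosphatase of gluconeogenesis (-2.40, SE 0.39, adjusted p = 0.00985), Pck1, the gluconeogenic PEP carboxykinase (-2.75, SE 0.47, adjusted p = 0.0127), and Slc22a6, the organic anion transporter OAT1 (-2.80, SE 0.51, adjusted p = 0.0174), whose call was lost without TEC sham control replicate 2 (adjusted p = 0.0675). This list shares 6 genes with the 16 proximal tubule markers, of which 9 fell (median -2.38).

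Of 20 PPARA targets, 6 fell and 1 rose (median -0.97). Those that fell included Cyp4a10 (-3.80, SE 0.48, adjusted p = 0.00264) and Cyp4a14 (-4.37, SE 0.59, adjusted p = 0.00388), both fatty acid hydroxylases. The gene that rose was Plin2, which coats lipid droplets (4.40, SE 0.65, adjusted p = 0.00671). Plin2 kept its call with any library left out.

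Of 20 ESRRA targets, 3 fell (median -0.94), all genes of mitochondrial metabolism. They were Ndufs1, a subunit of complex I (-2.26, SE 0.46, adjusted p = 0.0273), Ogdh of the citric acid cycle (-2.24, SE 0.48, adjusted p = 0.0350) and Acadm, the medium-chain acyl-CoA dehydrogenase (-2.26, SE 0.49, adjusted p = 0.0379), which is also in the PPARA list. Each was lost with 6 or 7 of the 11 libraries left out in turn, among them every sham library but TEC sham control replicate 1, at adjusted p up to 0.126. Of 11 tested targets of NR1H4, 1 fell, Slc51a, a subunit of the basolateral bile acid transporter (-3.71, SE 0.74, adjusted p = 0.0252), which was lost without TEC sham control replicate 2 or TEC sham RIPC replicate 1 or 2 (adjusted p up to 0.102). Nr0b2, the classical target of NR1H4, was not tested because of low counts.

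Of 14 collecting duct genes related to TFCP2L1, 1 fell, Atp6v0a4, a proton pump subunit of intercalated cells (-2.61, SE 0.59, adjusted p = 0.0436), and its call was lost without 9 of the 11 libraries (adjusted p up to 0.136). Of 19 tested other nephron transcription factors, 1 fell, Osr2 (-2.11, SE 0.39, adjusted p = 0.0182), lost without TEC sham RIPC replicate 2 or either TEC IRI control library (adjusted p up to 0.114). Their median was -0.88, or -1.04 with genes absent from a whole group set at the floor. None of 20 nuclear receptor partners and coregulators was called by edgeR, among them Ppargc1a, which encodes PGC-1α (-2.23, SE 0.64, adjusted p = 0.119), and Vdr, the vitamin D receptor (-2.66, SE 0.86, adjusted p = 0.170), and their median was -0.13. Vdr passed without TEC IRI control replicate 1 (-5.18, adjusted p = 0.00151), and with all libraries by DESeq2's Wald test, limma and edgeR without a filter.

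**Figure D3:**
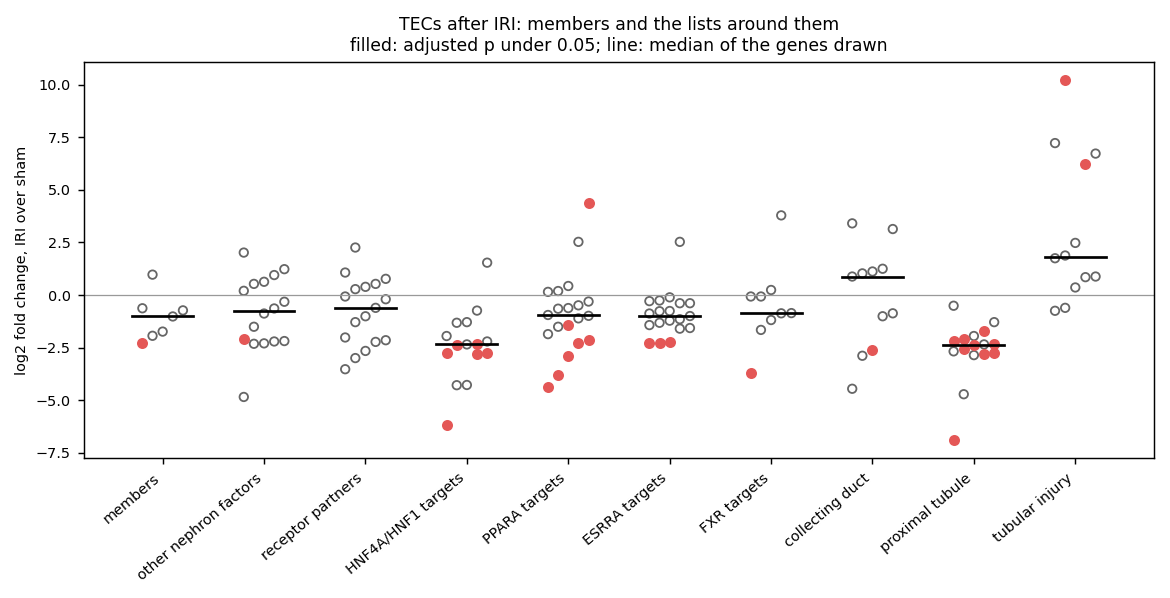
Log2 fold change of TECs after IRI over sham surgery for the members and for the genes of each list, 1 point per gene, filled where the adjusted p was under 0.05, with a line at the median of the genes drawn. Genes at 0 in a whole TEC group, Emx1 among them, are left out. The HNF4A and HNF1 targets had a median of -2.35 and the PPARA targets of -0.97.

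Markers of the tubule and of other cells were read in the same libraries. The proximal tubule markers summed to 18975 to 33663 CPM (median 25505) in sham TECs and to 4089 to 13304 CPM (median 4892) after IRI, with all 16 detected in sham libraries. Of 12 tubular injury genes 2 rose, Krt20, a keratin (10.24, SE 1.44, adjusted p = 0.00466), and Sox9, a factor of tubular repair (6.23, SE 1.26, adjusted p = 0.0282), the latter lost without any of 4 libraries (adjusted p up to 0.0994). The injury genes summed to 1330 to 3093 CPM in 5 sham TEC libraries, to 10915 CPM in sham control replicate 1, and to 6570 to 17130 CPM after IRI (6570 in IRI RIPC replicate 3), so that sham and IRI libraries overlapped. None of the 10 fibroblast and mesangial genes was called, with a fitted difference above 0 for all 10 (median 2.07) and sums of 2.52 to 54.78 CPM and 28.93 to 123.1 CPM. None of the 10 endothelial genes was called either, with a median of 1.21 and sums of 5.98 to 113 CPM and 6.46 to 325.7 CPM. Podocyte markers summed to 7.2 to 202.5 CPM in sham TECs and 7.78 to 1695 CPM after IRI, and neutrophil markers to at most 79.25 CPM and 336 CPM. Markers of loop, distal tubule and collecting duct summed to 208.8 to 1226 CPM and 90.15 to 608.5 CPM. None of the 11 tested was called, and all 11 had a fitted difference below 0 (median -2.59). The part of a different mix of cells in the members' values was not tested.

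**Figure D4:**
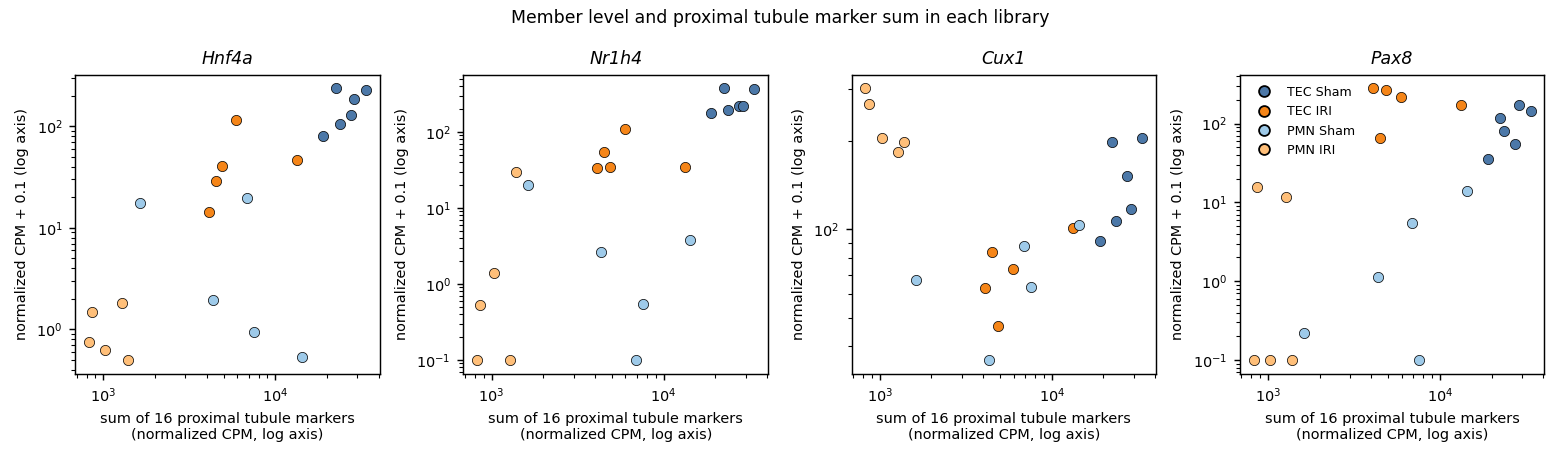
CPM of Hnf4a, Nr1h4, Cux1 and Pax8 (plus 0.1, log axis) against the summed CPM of 16 proximal tubule markers (log axis), 1 point per library, coloured by cell type and surgery. In TECs the marker sum was 18975 to 33663 CPM after sham surgery and 4089 to 13304 CPM after IRI. Nr1h4 lay at 32.97 to 107.7 CPM after IRI, below every sham TEC library. Hnf4a lay at 14.31 to 114.8 CPM after IRI, which overlapped its 80.16 to 237.1 CPM after sham surgery, and Pax8 lay at 66.23 to 282.3 CPM after IRI. The PMN libraries after IRI had the lowest marker sums.

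In TECs, RIPC was compared with the control procedure. After sham surgery, no member was called by edgeR and no gene of all (0.00%). None of the 8 members had an unadjusted p under 0.05 (1175 genes of all did, 4.53%), and neither DESeq2 nor limma called any. Nr1h4, Cux1 and Tfcp2l1 were nevertheless lower in all 3 RIPC libraries than in all 3 control libraries, where 2.45% of all genes were, and Esrra was higher, at 39.71, 40.21 and 44.17 CPM against 2.65, 19.39 and 11.36 CPM, where 5.37% were. For Nr1h4 the log2 difference was -0.75 (SE 0.52, adjusted p = 0.800).

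After IRI, no member was called by edgeR between RIPC and control, and 1 gene of all was (0.00386%). At an unadjusted p under 0.05, 2 members passed, Emx1 and Tfcp2l1, where 4.35% of all genes did. Emx1 was the one member whose groups did not overlap, lower with RIPC, where 8.97% of all genes were lower and 7.89% higher without overlap. DESeq2's Wald test and its apeglm form each called 1 member, Emx1, at 0 in the 3 RIPC libraries and at 11.08 and 0.503 CPM in the control libraries, at least 45.6-fold lower. Against the second control library alone the limit was 3.97-fold. Limma called none, and in edgeR Emx1 passed without TEC IRI control replicate 2, which leaves 1 control library. Hnf4a differed by -1.36 (SE 0.67, adjusted p = 0.778) and Tfcp2l1 by 2.87 (SE 1.05, adjusted p = 0.778). The test of whether RIPC acted differently after IRI and sham surgery called no member by edgeR (0.00% of all genes), with 2 members and 1869 genes at an unadjusted p under 0.05, none by limma and 1 by DESeq2's Wald test, Emx1.

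In PMNs Cux1 was the member with the most reads. It lay at 67.13 and 103.1 CPM after sham control, at 63.4, 87.28 and 35.86 CPM after sham RIPC, at 182.8 and 266.7 CPM after IRI control, and at 301.5, 198.2 and 204.4 CPM after IRI with RIPC. Every IRI library lay above every sham library, where 3.47% of all genes did, and no member lay below in every IRI library, as 2.03% of genes did. The log2 difference of 1.64 (SE 0.38) had an adjusted p of 0.152. Over the same libraries 2 of 16 neutrophil markers rose, with a median difference of 1.55 against -0.01 over all genes, while proximal tubule and macrophage marker sums were lower after IRI as given above, and the part of these in the Cux1 values was not tested. No member was called by edgeR in PMNs between IRI and sham surgery, where 0.416% of the 25002 genes tested were (0.364% higher and 0.0520% lower), with 2 members (Cux1 and Emx1) and 2958 genes at an unadjusted p under 0.05, and DESeq2's Wald test called 1 member, Cux1 (adjusted p = 0.00966).

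The direction of the Cux1 difference was thus opposite in the cell types, lower after IRI in TECs and higher in PMNs. The difference between them, tested as the interaction of cell type and surgery, was -2.64 on the log2 scale (SE 0.62, unadjusted p = 0.000394 by edgeR, adjusted p = 0.157). The interaction test called no member and no gene of all (0.00%) in edgeR, with 2 members and 3102 genes (9.76%) at an unadjusted p under 0.05. DESeq2's Wald test and limma on TPM each called 1 member, which was Cux1.

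Cux1 also encodes CASP, a Golgi membrane protein that lacks the homeobox, through transcripts with a different 3′ end. Its 14 transcripts were sorted into 6 with the homeobox type of 3′ end, 5 of the CASP type and 3 of neither, after values were seen and with no test. Reads of 50 bases were divided among these transcripts by estimation, which limits how well the types are told apart. In TECs the CASP type held 76.2% of Cux1 reads and the homeobox type 17.8%. In PMNs they held 35.3% and 29.8%, and the remaining 34.9% lay on the transcripts of neither type. Among these, Cux1-214, annotated as a retained intron, held 33% of pooled Cux1 reads in sham PMNs and 29.8% in PMNs after IRI. In TECs the homeobox type lay at 20.1 to 42.1 CPM after sham surgery and 1.06 to 17.4 CPM after IRI with no overlap, as for 3.07% of single transcripts with a mean of at least 1 CPM in TECs, and the CASP type at 57.2 to 176 CPM and 11.6 to 90 CPM with overlap. In PMNs the CASP type lay at 0.519 to 39.1 CPM after sham surgery and 50.9 to 131 CPM after IRI with no overlap, as for 3.60% of such transcripts in PMNs, and the homeobox type at 9.62 to 46.1 CPM and 24.1 to 109 CPM with overlap. The types are sums of 6 and 5 transcripts, so the shares of single transcripts are not a like measure for them. The homeobox type held between 1.05% and 39.6% of the Cux1 reads of a TEC library. In a PMN library it held between 9.33% and 94.2%.

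**Figure D5:**
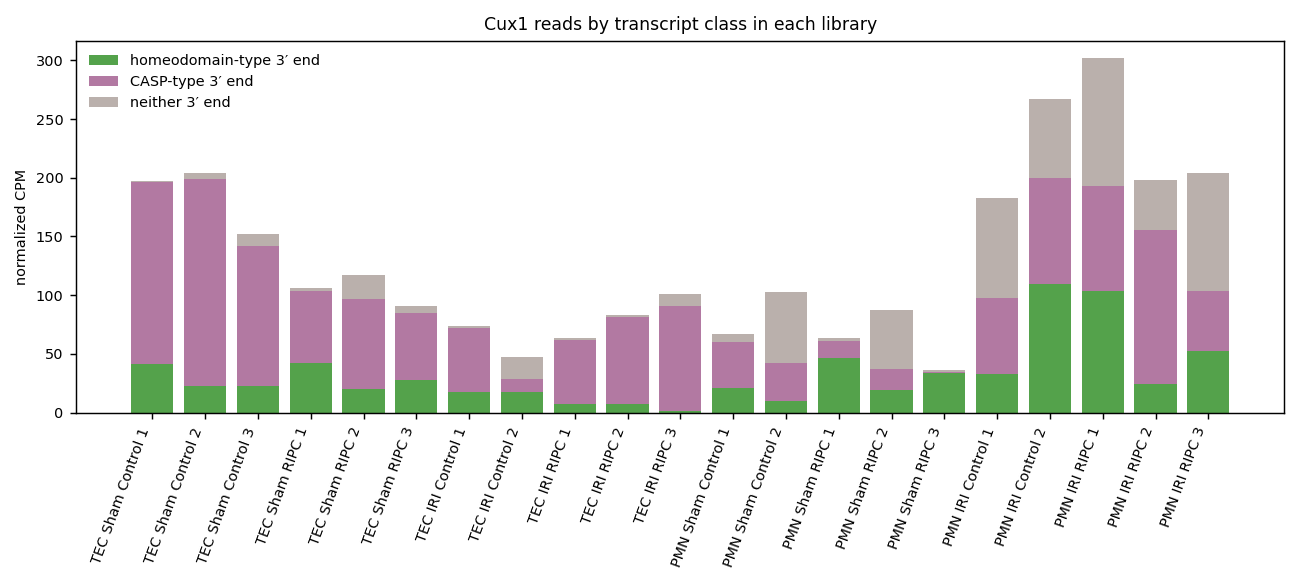
Normalized CPM of Cux1 in each library as stacked bars, 1 bar per library, divided into transcripts with the homeobox type of 3′ end, with the CASP type and with neither. In TECs the homeobox type lay at 20.1 to 42.1 CPM after sham surgery and 1.06 to 17.4 CPM after IRI, and in PMNs the CASP type at 0.519 to 39.1 CPM and 50.9 to 131 CPM.

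The other members were low and uneven in PMNs. Hnf4a exceeded 2 CPM in 2 of 10 PMN libraries (17.64 and 19.73 CPM), both after sham surgery, and Nr1h4 reached 19.71 CPM in 1 of these and 29.41 CPM in a library of IRI with RIPC. Pax8 lay at 11.57 and 15.43 CPM in the IRI control libraries and at 0 in the 3 libraries of IRI with RIPC, at least 107-fold lower. That comparison of RIPC with control called no member by edgeR and no gene (0.00%), and 680 genes had an unadjusted p under 0.05. Pax8 was the one member among these (edgeR adjusted p = 0.920), and DESeq2's Wald test called it. Pax8 and Hnf4a (0.4 to 0.653 CPM with RIPC and 1.37 to 1.71 CPM without) were lower in all RIPC libraries than in both control libraries, as were 9.54% of all genes. RIPC against control after sham surgery called 1 gene (0.00400%) and no member by edgeR, with none at an unadjusted p under 0.05 or by DESeq2 or limma, where 1150 genes had such a p. Between IRI and sham surgery under the control procedure alone, no member and no gene was called in PMNs by edgeR (0.00%), with 2 members and 1113 genes at an unadjusted p under 0.05 and no member by DESeq2's Wald test or limma. Whether RIPC acted differently after IRI and sham surgery in PMNs was tested in the same way, with no member and no gene called (0.00%), no member and 1434 genes at an unadjusted p under 0.05, and no member by DESeq2's Wald test or limma.

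Over the 11 TEC libraries, which share the difference between IRI and sham surgery, the genes most like each member were found by Pearson's r of log2(CPM + 1) among the 25917 genes tested, as a description. Hnf4a and Nr1h4 ran together (r = 0.91), as did Nr1h4 and Cux1 (0.83) and Hnf4a and Cux1 (0.78), whereas Pax8 had r = -0.44 with Nr1h4 and -0.22 with Hnf4a. The genes nearest to Nr1h4 were Acnat2 (0.965), Gsta3, a glutathione transferase (0.962), and Ndufab1, of mitochondrial complex I (0.960). Those nearest to Hnf4a were Mrps7, a mitochondrial ribosomal protein (0.980), ccdc198 (0.960) and the deacetylase Hdac11 (0.958). Cux1 was nearest to the mitochondrial channel Vdac2 (0.955), Sult1d1 (0.943) and the fatty acid transporter Slc27a2 (0.943), and Tfcp2l1 to Klhl36 (0.949), Kdm3a (0.948) and Oxnad1 (0.945). Among the genes nearest to Pax8 were the integrin subunit Itgb1 (0.914) and Ate1 (0.912), and Ppara was nearest to 2 pseudogenes of other genes, Gpx4-ps2 (0.952) and Ftl1-ps1 (0.940), and to Gm11827 (0.918).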

How the data were processed

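RNA was taken from sorted cells, and poly(A) RNA was reverse transcribed with a template switch, amplified by PCR and sequenced as single-end reads. Per the labels, the authors trimmed the reads with Trim Galore 0.6.4 and quantified them with Salmon 1.0.0 (mm10). The authors deposited Salmon's estimated count of each transcript, without normalization, and TPM, which is scaled for length and depth, in 2 files for each library. PCR copies were counted as reads, so that limits from counts cover counting error only.

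Estimated counts of both files were added, summed over the transcripts of a gene (Gencode release 21, where the study's methods name another release; 139864 of 140748 transcripts matched) and rounded. Genes of the sex chromosomes and mitochondrial genome were left out. edgeR 4.0.16 (R 4.3.3) was used for the quasi-likelihood test with TMM normalization and filterByExpr, with the 4 groups of a cell type in 1 fit, or all 8 groups for TECs against PMNs. SEs were derived from the F statistic. Adjusted p-values (Benjamini-Hochberg over all genes tested) under 0.05 were called, and all 8 members passed the filter. CPM values were normalized over all 21 libraries, and between genes levels were compared as TPM. Separate animals are named for the libraries only as biological replicates in the study's text, so p-values measure the spread between these libraries.

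The members and gene lists were chosen with earlier results of these data known. Named genes were the 8 members, up to 4 genes of a list by smallest adjusted p, and for members with over 3 reads in every TEC library the 3 genes of highest r. Some genes that this rule names are not reported here. Alternatives were DESeq2 1.42.0 (size factors, Wald test and, for RIPC, apeglm 1.24.0 at an s value under 0.01), no filter, each file alone, a replicate block, the compared groups alone, limma 3.58.1 on log2(TPM + 1) and each library left out in turn. On simulated counts, unchanged genes made up 28 of 145 calls between IRI and sham surgery in TECs, more than the threshold allows. Calls there are thus less firm than their adjusted p-values state. Of simulated 8-fold changes, 40.0% were called in that comparison. Only 5.00% were called between TECs and PMNs after sham surgery, and 5.00% between IRI and sham surgery in PMNs. A member that was not called can therefore still have changed. Depth was 20881334 to 51624602 reads a library.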

Additional observations from a re-analysis of the deposited data

How the results depend on the processing

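The numbers of members called moved with the test more than with the scaling. With DESeq2's Wald test they were 7 (from 4) for TECs against PMNs after sham surgery, 6 (from 3) after IRI and 1 (from 0) for the interaction, 4 (from 2) for TECs after IRI against sham, 3 (from 0) under the control procedure alone, 1 (from 0) for RIPC in TECs after IRI and for its interaction with surgery, 1 for IRI in PMNs and 1 for RIPC in PMNs after IRI. With no filter on low counts they were 4 in TECs after IRI, and 1 (from 0) for the interaction with cell type, the control procedure alone, RIPC in TECs after IRI, its interaction and IRI in PMNs. Limma on TPM gave 5 for TECs against PMNs after IRI, 1 for the interaction and 4 in TECs after IRI, and apeglm gave 1 for RIPC in TECs after IRI. Limma on TPM also turned the Ppara difference in TECs to 1.36, and there the share of reads on short transcripts differed as given above. Leaving out 1 library gave 1 to 4 members for TECs against PMNs after sham surgery, 2 to 4 after IRI, 0 to 2 in TECs after IRI and 0 to 1 for RIPC in TECs after IRI. No member remained in TECs after IRI without TEC sham control replicate 2 or TEC sham RIPC replicate 1 or 2, and 1 without TEC sham control replicate 3, TEC sham RIPC replicate 3 or TEC IRI control replicate 2. Log2 differences of a selection of the named genes were counted over all alternatives. Of these, 684 kept direction and side of the threshold, 35 newly passed, 75 no longer passed and 1 reversed. The selection left out Emx1 in all comparisons and Pax8 in TECs against PMNs after IRI. Many that kept their side were not called in the main fit either, so the count does not measure how firm the calls were.

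Over all genes, the count called in TECs after IRI was 363, and 1289 with no filter, 2234 by the Wald test, 882 by limma and 92 to 714 with 1 library left out. In PMNs it was 104, and 971, 1955, 311 and 5 to 393. For TECs against PMNs it was 832, and 2222, 4753, 2518 and 549 to 1037 after sham surgery, and 847, and 1763, 3725, 2139 and 560 to 815 after IRI. DESeq2's size factors moved the median log2 difference over all genes in TECs after IRI from 0.15 to 0.28. Replicate numbers were checked within each cell type only, by the correlation of deviations from group means. In TECs it was -0.09 to 0.11 for same-numbered libraries and -0.1 to 0.06 for others. In PMNs both ran from -0.02 to 0.02. Whether a TEC and a PMN library came from the same mouse was not tested, and the tests between cell types took them as independent. With the replicate block 404 genes were called in TECs after IRI and 23 in PMNs. Groups of 2 or 3 libraries limit all comparisons, and members at a few CPM are limited by depth.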
